A study of Mus musculus with 13 samples.

Results

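A set of 10 genes that carry or answer the growth signals of the hair follicle were followed through 48 h in mouse back skin. They are the ligands Shh, Wnt10b, Wnt5a, Fgf5, Fgf7, Bmp2 and Bmp4 and the transcription factors Lef1, Msx2 and Foxn1, taken by symbol. Each had 1 array probe annotated to it alone, and all 10 of 10 passed the filter on dim probes, out of 16322 genes fitted. Whole back skin came from male C57Bl6 mice at postnatal day 30, housed in 12 h of light and 12 h of dark. Sampling ran at 4 h steps between ZT2 and ZT50 (ZT is the number of hours since lights came on), and each array carried a pool of equal RNA from 3 mice. The 6 dark pools were ZT14, ZT18, ZT22, ZT38, ZT42 and ZT46, and the 7 light pools were ZT2, ZT6, ZT10, ZT26, ZT30, ZT34 and ZT50. All mice were of 1 strain with no genotype or treatment difference named, and the follicles were labelled as being in anagen, when hair grows. Pooling hides variation from mouse to mouse, and p-values measure the spread between pools.

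In the growing follicle, matrix cells at the base of the bulb divide around the dermal papilla, a cluster of dermal cells, and then differentiate into hair shaft and inner root sheath. Wnt ligands act through Frizzled receptors and beta-catenin, which works with Lef1 on target genes. Sonic hedgehog lifts the block that the receptor Patched places on Smoothened and so activates Gli factors, of which Gli1 is itself induced, as is Ptch1. BMP signals favour differentiation of shaft cells in anagen and hold follicles at rest in telogen, and Fgf5 brings anagen to its end.

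The labelled tissue matched its markers. Krt14, a keratin of basal epidermis, lay between 9079 and 10474 intensity units over the 13 pools, and Krt71 and Tchh, of the inner root sheath, lay between 19420 and 20718 and between 15043 and 17338. The array also read genes named for tissues other than follicle and epidermis. The summed intensity of 17 of 17 skeletal muscle genes lay between 50237 and 93953 in dark pools and between 45607 and 94527 in light pools, and that of 11 of 12 liver genes between 7419 and 37389 in dark pools, highest at ZT46, and between 6928 and 12349 in light pools. At ZT46 the mean of the liver genes lay 2.10 log2 above its mean over pools. Whether these transcripts came from cells of the skin was not tested. Array medians lay between 440.0 and 483.2. In whole skin, fewer cells of a type and less RNA per cell cannot be told apart.

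Promoter sequences of 7 of the 10 genes were at hand from RefSeq (GRCm38.p6), each 250 bases before to 50 after a transcript start. The 4 printed belong to Bmp4, which had the smallest p of the 10 in both time tests, and to Lef1 (the first of 4 starts), Msx2 and Foxn1, the pairs of which are described further on. Capitals mark CACGTG, the E-box read by clock factors.
Bmp4, chr14:46390620-46390919, minus strand: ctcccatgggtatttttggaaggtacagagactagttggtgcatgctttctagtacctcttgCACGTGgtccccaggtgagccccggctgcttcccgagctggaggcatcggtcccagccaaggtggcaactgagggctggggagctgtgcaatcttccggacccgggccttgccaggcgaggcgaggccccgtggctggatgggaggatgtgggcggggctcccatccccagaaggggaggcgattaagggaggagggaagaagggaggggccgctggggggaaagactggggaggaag
Lef1, chr3:131110047-131110346, plus strand: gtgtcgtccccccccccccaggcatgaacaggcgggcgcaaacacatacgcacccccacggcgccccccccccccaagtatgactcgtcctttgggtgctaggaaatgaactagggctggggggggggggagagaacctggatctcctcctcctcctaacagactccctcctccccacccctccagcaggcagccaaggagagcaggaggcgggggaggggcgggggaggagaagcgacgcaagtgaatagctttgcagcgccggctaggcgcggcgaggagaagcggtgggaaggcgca
Msx2, chr13:53472731-53473030, minus strand: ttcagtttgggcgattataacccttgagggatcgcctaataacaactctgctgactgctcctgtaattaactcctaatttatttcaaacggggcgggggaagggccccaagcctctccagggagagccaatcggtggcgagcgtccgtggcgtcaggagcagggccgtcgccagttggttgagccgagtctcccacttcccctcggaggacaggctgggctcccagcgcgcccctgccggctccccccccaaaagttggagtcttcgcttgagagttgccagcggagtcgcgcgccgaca
Foxn1, chr11:78386559-78386858, minus strand: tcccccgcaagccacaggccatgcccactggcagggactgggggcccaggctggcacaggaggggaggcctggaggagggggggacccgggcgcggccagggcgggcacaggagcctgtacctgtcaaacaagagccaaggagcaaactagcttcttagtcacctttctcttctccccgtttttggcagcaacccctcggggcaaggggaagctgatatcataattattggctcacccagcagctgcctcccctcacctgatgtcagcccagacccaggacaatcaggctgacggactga
On both strands, 3 motifs were searched: CACGTG, the LEF/TCF motif CTTTGAT and AGGTCA, which is only part of the motif of the ROR and REV-ERB receptors. The bases beside AGGTCA were not searched, so a match alone does not show a site of these receptors. The Bmp4 window held 1 E-box, at -188 from the start, and the fourth Lef1 window held 1 at -79. The Fgf7 window held 1 AGGTCA, at -47. None of the 10 windows of the 7 genes held CTTTGAT. Over all 32851 promoter windows, 7.15% held CACGTG, 3.73% CTTTGAT and 16.3% AGGTCA.

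The first comparison asked whether the growth signals followed a 24 h wave, fitted with a linear time term to log2(intensity + 16) over the 13 pools. None of the 10 passed (limma, adjusted p under 0.05), where 0.141% of all genes fitted did. The unadjusted p was under 0.05 for 2 of 10, Bmp4 and Fgf5, against 9.54% of all genes. The median amplitude, the height of the wave, was 0.04 log2 over the 10, against 0.06 over all genes and 0.42 over 13 core clock genes, of which 7 passed. All amplitudes of the 10 lay at or below 0.18.

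**Figure D1:**
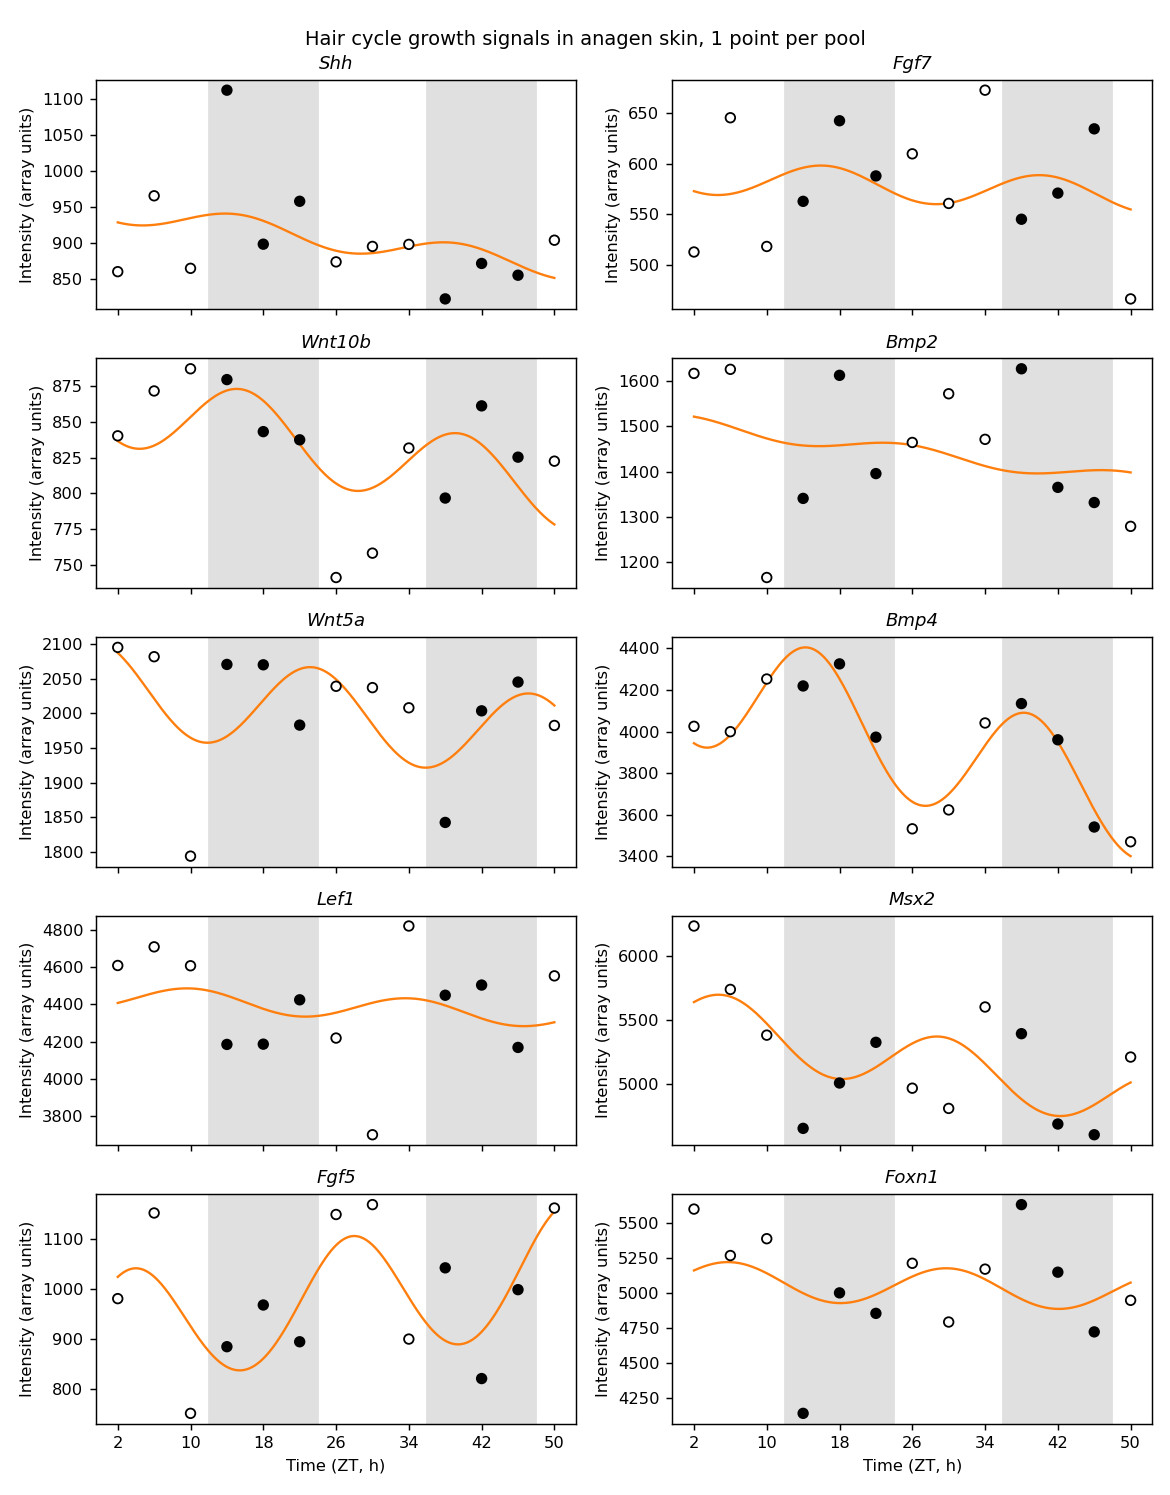
Intensity of each growth signal gene (vertical axis, array units, own range per panel) against time in ZT hours, 1 point per pool, filled in dark pools and open in light pools, with dark hours shaded and the fitted wave plus drift as a line. Bmp4 lies close to its line, while Shh and Foxn1 depart most from theirs at ZT14.

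Bmp4 (probe 10419261), a BMP ligand made in the dermal papilla and elsewhere in the dermis, came closest. Its intensity was 4025, 3999, 4253, 4219, 4326 and 3973 from ZT2 to ZT22 and 3532, 3623, 4041, 4134, 3960, 3540 and 3469 from ZT26 to ZT50. On both days it stood highest between late light and mid-dark, at ZT18 and at ZT38. The fitted peak was at 14.8 ± 1.0 h (SE), with an amplitude of 0.11 ± 0.03 log2 (SE, 13 pools) and a peak-to-trough fold of 1.16. Its unadjusted p was 0.00310, rank 144 of 16322, and the adjusted p was 0.350 (limma). The residual SD around the fit was 0.04 log2, the smallest of the 10, against a median of 0.11 over all genes. The adjusted p lay between 0.166 and 0.998 over the 24 alternatives, highest where hours were fitted as 6 separate levels.

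Fgf5 (probe 10523490), made in the outer root sheath and known from long-haired mutant mice, had the widest fitted wave of the 10. Its intensity was 980.2, 1152, 750.3, 883.9, 967.4 and 893.8 from ZT2 to ZT22 and 1149, 1169, 899.1, 1042, 820.0, 998.2 and 1162 from ZT26 to ZT50. At 2 h after lights on it averaged 1097 ± 101 (SD, n = 3) and at 6 h 1160 ± 11.9 (SD, n = 2), and at 10 h 825 ± 105 (SD, n = 2). The pools of 2 and 6 h overlapped the rest, since ZT2 lay below ZT38 and ZT46. The amplitude was 0.18 ± 0.06 log2 (SE), a fold of 1.28 with a peak at 3.7 ± 1.4 h (limma, unadjusted p = 0.0330, adjusted p = 0.501).

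For the other 8 genes the fitted peak-to-trough fold was smaller than for Bmp4, down to 1.02 for Bmp2. The data still allow small waves: the largest fold inside the joint 95% region of the wave terms was 1.20 for Wnt5a, 1.21 for Wnt10b, 1.22 for Shh, 1.23 for Lef1, 1.28 for Foxn1 and Bmp4, 1.29 for Bmp2, 1.31 for Msx2, 1.33 for Fgf7 and 1.60 for Fgf5. Shh (probe 10528872), made by matrix cells, had an amplitude of 0.03 ± 0.04 (SE), and Lef1 (probe 10496091) one of 0.02 ± 0.05. Bmp2 (probe 10476395), a second BMP ligand, had 0.02 ± 0.06. With a pool left out, the amplitude reached 0.05 for Shh (without ZT38), 0.08 for Lef1 (without ZT30) and 0.06 for Bmp2 (without ZT38), and with the muscle and adipocyte covariates it was 0.11 for Shh, 0.03 for Lef1 and 0.10 for Bmp2, so the order of these small amplitudes is not settled. In these 3 genes the SE was wider than the amplitude, and no peak hour is given. The SE was also the wider for Fgf7 (0.04 ± 0.06) and Foxn1 (0.04 ± 0.05). Between the same hour on the second and first day, the median absolute difference was 0.08 log2 for Shh, 0.19 for Bmp2 and 0.18 for Fgf7, against fitted peak-to-trough spans of 0.05, 0.03 and 0.08. The fitted span was the wider for Bmp4 (0.13 against 0.22), Fgf5 (0.23 against 0.35) and Wnt5a (0.05 against 0.09), and the narrower for the other 7.

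**Figure D2:**
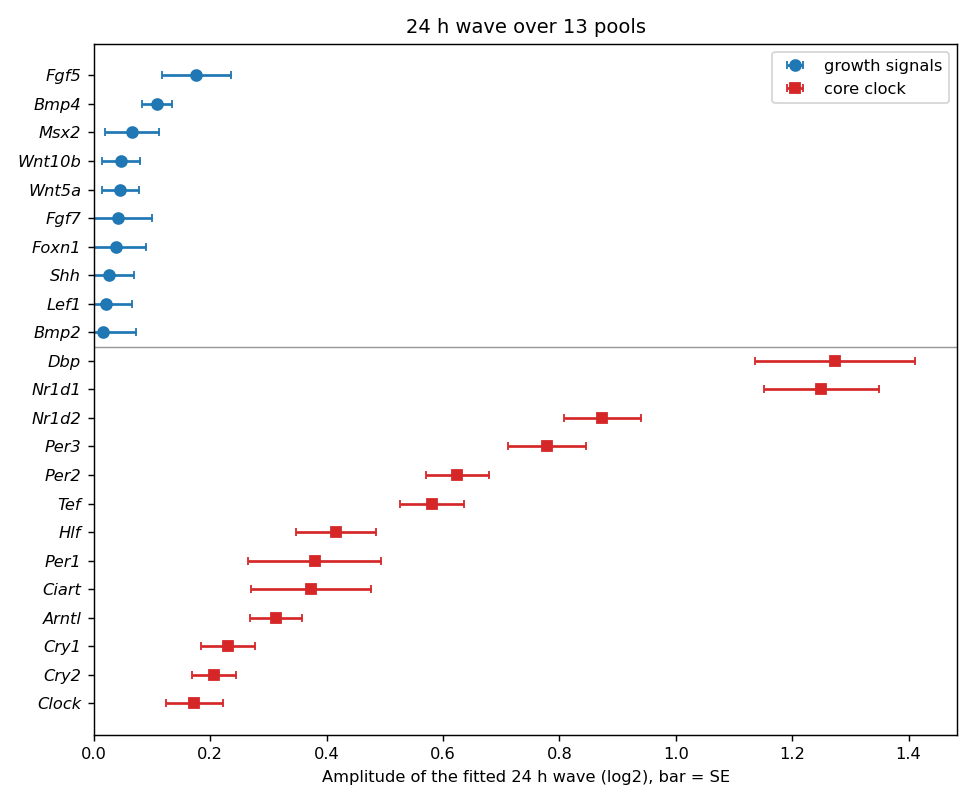
Amplitude of the fitted 24 h wave (horizontal axis, log2, bars are the SE over 13 pools) for the 10 growth signal genes above and 13 core clock genes below. The growth signals end at 0.18, of Fgf5, and the clock genes reach 1.27, of Dbp.

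The second comparison asked whether levels drifted over the 48 h. None of the 10 passed (limma, adjusted p under 0.05), and 0% of all genes did, with 8.80% at an unadjusted p under 0.05. That unadjusted p was met by 1 of 10, Bmp4, which was lower with time, as were 5.59% of all genes. Slopes were below 0 for 9 of 10, against 56.5% of all genes (7 of 10 without ZT2, ZT30 or ZT50 and with the muscle and adipocyte covariates), and the median slope was -0.04 log2 per 24 h, against -0.01 over all genes. Bmp4 had -0.11 ± 0.03 log2 per 24 h (SE, unadjusted p = 0.00440, adjusted p = 0.361 in limma). It was lower on the second day than on the first at 6 of 6 matched hours, as were 2.14% of all genes. Its second-day mean was 3805, against 4132 on the first day, and the ranges overlapped (3532 to 4134 on the second day, 3973 to 4326 on the first). Of 17 skeletal muscle genes, 0 had a slope below 0, and with the muscle and adipocyte means as covariates the Bmp4 slope was -0.10 (adjusted p = 0.871 in limma). Wnt10b (probe 10432267), a ligand of beta-catenin signalling in follicle epithelium, was lower on the second day at 5 of 6 hours. It ranged from 741.2 to 861.1 there, against 837.4 to 886.9 on the first day, with a slope of -0.05 ± 0.04 (SE, adjusted p = 0.728 in limma). Fgf5 was the 1 gene with a slope above 0, at 0.09 ± 0.07 (SE, adjusted p = 0.754 in limma), and lay higher on the second day at 5 of 6 hours. Its slope was 0.05 without ZT10 or without ZT38.

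The homeobox gene Msx2 (probe 10409314), expressed in matrix cells, had a slope of -0.08 ± 0.05 (SE, adjusted p = 0.661 in limma) and was highest in the first pool, with 6234 at ZT2 and between 4608 and 5739.9 in the other 12. The slope was -0.03 without ZT2 and -0.04 with the muscle and adipocyte covariates. The slopes of Foxn1 (probe 10388824), the gene mutated in nude mice, and of Lef1 were -0.01 ± 0.06 and -0.02 ± 0.05 (SE). Fgf7 (probe 10475643), a papilla ligand for epithelial Fgfr2, had -0.02 ± 0.07 (SE), and its lowest and highest pools were ZT50 (466.2) and ZT34 (672.9).

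The third comparison set dark against light. None of the 10 passed (limma, adjusted p under 0.05), with 0.00613% of all genes called, and 0 of 10 had an unadjusted p under 0.05, against 12.4% of all genes. Fgf5 averaged 934 ± 82.5 in the dark and 1037 ± 165 in the light (SD, n = 6 and 7), a difference of -0.16 ± 0.10 log2 (SE, adjusted p = 0.474 in limma). Msx2 averaged 4948 ± 350 in the dark and 5422 ± 485 in the light, a difference of -0.10 ± 0.06 (adjusted p = 0.463 in limma). Bmp4 averaged 4025 ± 276 in the dark and 3849 ± 303 in the light, with 0.10 ± 0.05 (adjusted p = 0.413 in limma). The dark and light ranges overlapped for all 3. The noncanonical Wnt ligand gene Wnt5a (probe 10413482) was nearly level, at 2003 ± 86.1 in the dark and 2006 ± 101 in the light, and its lowest pools were ZT10 (1794) and ZT38 (1843).

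**Figure D3:**
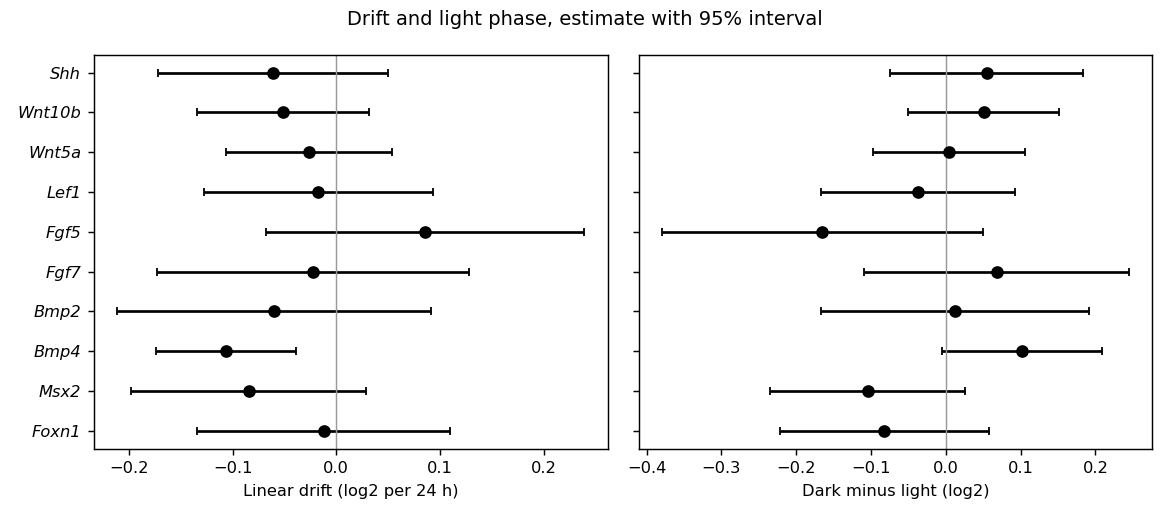
Estimates with 95% intervals from limma for linear drift (left, log2 per 24 h) and dark minus light (right, log2), 1 row per growth signal gene. The drift interval of Bmp4, from -0.17 to -0.04, leaves out 0 before adjustment, and all 10 intervals of dark minus light include 0.

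At ZT14, Shh and Foxn1 lay at opposite ends of their ranges. The labels give anagen for all pools and no finer stage for each, so whether the ZT14 mice were at another point of the hair cycle was not tested. Shh read 860.4, 965.6, 865.0, 1112, 898.5 and 958.0 from ZT2 to ZT22 and 874.0, 895.4, 898.3, 822.7, 871.8, 855.5 and 904.1 from ZT26 to ZT50. It was highest at ZT14, with 1112, against 822.7 to 965.6 in the other 12 pools. Foxn1, which drives differentiation of shaft cells, read 5597, 5265, 5386, 4138, 4999 and 4852 from ZT2 to ZT22 and 5210.0, 4791, 5168, 5629, 5147, 4720.3 and 4946 from ZT26 to ZT50. It was lowest at ZT14, with 4138, against 4720.3 to 5629 in the others. The pool of the same hour a day later lay at the other end: at ZT38 Shh was 822.7 and Foxn1 5629, against 1112 and 4138 at ZT14, so Shh was at its lowest and Foxn1 at its highest as deposited. Of all genes, 9.19% were lowest and 4.84% highest at ZT38. The difference between ZT38 and ZT14 was -0.43 log2 for Shh and 0.44 for Foxn1. It lay between -0.43 and -0.42 for Shh and between 0.44 and 0.45 for Foxn1 as deposited, with quantile normalization and with median centring, though with median centring the highest Foxn1 pool was ZT2. Each is 1 pool of 3 mice, so the differences have no replicate check. Of the 10 genes, 1 was highest and 1 lowest at ZT14, and ZT14 was chosen for description after its values were seen.

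Several Hedgehog pathway genes were also at their highest in that pool. Of 12 fitted of 14 listed, 6 had their highest level at ZT14 (5 with median centring), where 9.26% of all genes did. Gli1 read 1295 there and 835.8 to 1005 elsewhere, Ptch1 4621 and 3188 to 3787, and Hhip, which binds and restrains the ligand, 850.3 and 557.4 to 726.7. Gli1 and Ptch1 were lowest at ZT38. Among 14 dermal papilla genes fitted of 16 listed, 7 were highest at ZT14 (6 with either other scaling). Vcan, a matrix proteoglycan gene, read 2695 there and 1476 to 2193 elsewhere, and Sox18 read 1147 and 497.4 to 734.2. Hhip stands in both lists. Other lists also held genes at their highest there, with 7 of 18 FGF genes, 7 of 21 Wnt effectors and 5 of 26 BMP genes. So did 4 of 25 Wnt ligands and receptors and 4 of 19 hair transcription factors. The ZT14 levels are thus not shown to be particular to Hedgehog or papilla genes. The BMP list was split, with 7 of its 26 genes lowest at ZT14, where 8.03% of all genes were.

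Hair keratin and inner root sheath genes were often at their lowest there, and transcription factors were mixed. Of 21 hair keratin and inner root sheath genes fitted of 24 listed, 12 were lowest at ZT14 (10 with median centring, 11 with quantile normalization), where 8.03% of all genes were. Padi3, which modifies hair proteins, read 6152 there and 7107 to 7792 elsewhere, and the shaft keratin gene Krt34 read 9025 and 9065 to 12514. Of 19 hair matrix and shaft transcription factor genes, 4 were lowest and 4 highest at ZT14, and the mean of the list was at its highest of the 13 pools, 0.12 log2 above its mean over pools. At ZT2, 8 of the 19 were highest, and the list mean lay 0.10 log2 above its mean over pools. Among the 19, Foxi3, known in dogs from hairless breeds, read 3176 at ZT14 and 514.1 to 843.9 elsewhere, 2.32 log2 above the mean of the others and rank 1 of 16322. The list mean at ZT14 includes Foxi3, so it does not show a rise of these genes as a group. Shh stood at rank 381 and Foxn1 at rank 218 from the bottom. Mean muscle genes at ZT14 lay 0.06 log2 above their mean over pools, adipocyte genes 0.16 above, dermal fibroblast genes 0.16 above, epidermal genes 0.07 above (their highest pool, with 5 of 11 genes at their highest) and melanocyte genes 0.16 below. The part of these cells in the follicle differences was not tested.

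**Figure D4:**
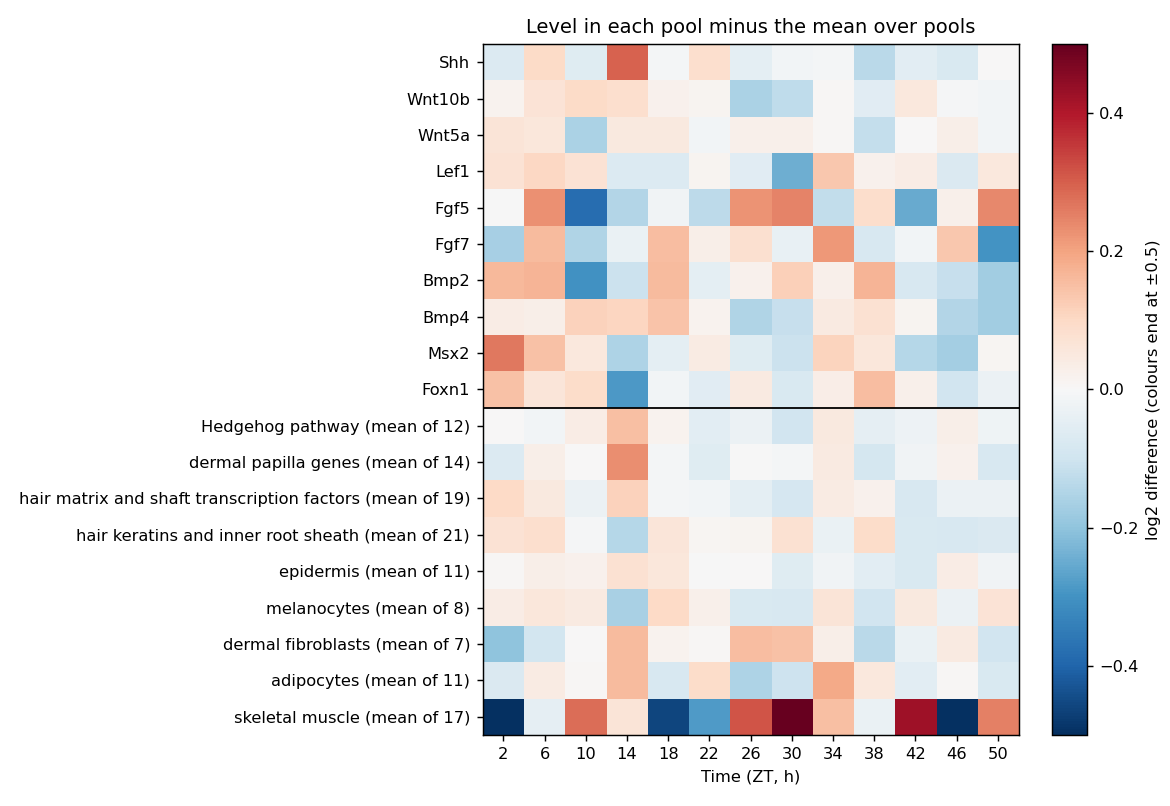
Level in each pool minus the mean over the 13 pools (colour, log2) for the 10 growth signal genes and, below the line, the mean of each gene list, by time in ZT hours. In the ZT14 column Shh is the highest of the 10 genes and Foxn1 the lowest. The means of Hedgehog, dermal papilla, hair transcription factor (Foxi3 included), dermal fibroblast, adipocyte, epidermal and muscle genes lie above 0 there. Msx2, Fgf5, hair keratins and melanocyte genes are among those below 0.

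Which growth signals varied together was asked over all 45 pairs of the 10. By Pearson's r, no pair passed adjusted over the 45 (permutation, smallest adjusted p = 0.134), and 6 had an unadjusted permutation p under 0.05. By Spearman's rho, 1 pair passed, Lef1 and Msx2, and 6 had an unadjusted permutation p under 0.05. The permutations ignored the order of the pools in time, so these p-values may be too small. Msx2 read 6234, 5739.9, 5384, 4657, 5011 and 5328 from ZT2 to ZT22 and 4970.4, 4813, 5603, 5395, 4691, 4608 and 5213 from ZT26 to ZT50. Lef1 read 4609.5, 4709.7, 4608, 4185, 4186 and 4425 from ZT2 to ZT22 and 4219, 3699, 4822, 4449, 4504, 4169 and 4554 from ZT26 to ZT50. Both stood high at ZT2, ZT6, ZT10 and ZT34 and low at ZT14, ZT30 and ZT46. Msx2 and Foxn1, both transcription factors of matrix and shaft, had r = 0.69 (permutation p = 0.00860, adjusted p = 0.134, Spearman rho 0.77, permutation p = 0.00292, adjusted p = 0.0657), and r = 0.60 without ZT2 and ZT46, the pools farthest from the Msx2 median. Lef1 and Msx2 had r = 0.67 (permutation p = 0.0115, adjusted p = 0.134) and rho 0.82 (permutation p = 0.00107), which passed on ranks (adjusted p = 0.0481), with r = 0.74 without ZT30 and ZT34. Shh and Foxn1 had r = -0.76 (permutation p = 0.00722, adjusted p = 0.134) and rho -0.47 (permutation p = 0.110, adjusted p = 0.552). That relation rested on ZT14: r was -0.41 without it (permutation p = 0.188) and -0.19 without ZT14 and ZT38.

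Wnt10b ran against Fgf5 (r = -0.67, permutation p = 0.0120, adjusted p = 0.134, and rho -0.70, permutation p = 0.00964, adjusted p = 0.144), with r = -0.51 without ZT26 and ZT30. Wnt10b ran with Bmp4 (r = 0.64, permutation p = 0.0177, adjusted p = 0.158, and rho 0.63, permutation p = 0.0249, adjusted p = 0.224), with r = 0.41 without the same pools. Bmp4 and Fgf5 had r = -0.64 (permutation p = 0.0210, adjusted p = 0.158, and rho -0.57, permutation p = 0.0448, adjusted p = 0.336), also -0.64 without ZT10 and ZT42. After removal of the fitted wave and drift of each gene, r was -0.22 for Bmp4 and Fgf5. It was then 0.35 for Wnt10b and Bmp4 and -0.505 for Wnt10b and Fgf5, and none of these pairs passed.

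With each gene's fitted wave and drift taken out, 5 of the 45 pairs passed by Pearson's r and 2 by Spearman's rho, but 4 terms were fitted to 13 pools, so these permutation p-values are too small. Bmp4 and Msx2 had r = 0.87 (permutation p = 0.00011, adjusted p = 0.00495, rho 0.87, permutation p = 0.00024, adjusted p = 0.00787), 0.83 without ZT14 and ZT26 with the fit unchanged, and between 0.81 and 0.91 with each pool left out and refitted. On levels, their r was 0.29 (permutation p = 0.330, adjusted p = 0.676, rho 0.31, permutation p = 0.298). Shh and Foxn1 had r = -0.87 (permutation p = 0.00024, adjusted p = 0.00540, rho -0.85, permutation p = 0.00035, adjusted p = 0.00787), -0.73 without ZT14 and ZT50 with the fit unchanged, and -0.60 refitted without ZT14. Values with the fit unchanged do not test dependence on the pools left out, since those pools still shaped the fit. The other 3 passed by r and not by rho. Lef1 and Msx2 had r = 0.76 (adjusted permutation p = 0.0168) and rho 0.72 (adjusted permutation p = 0.108). Msx2 and Foxn1 had r = 0.72 (adjusted permutation p = 0.0374) and rho 0.55 (adjusted permutation p = 0.296). Fgf5 and Bmp2 had r = 0.74 (adjusted permutation p = 0.0374) and rho 0.66 (adjusted permutation p = 0.117), with r = 0.47 refitted without ZT10.

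**Figure D5:**
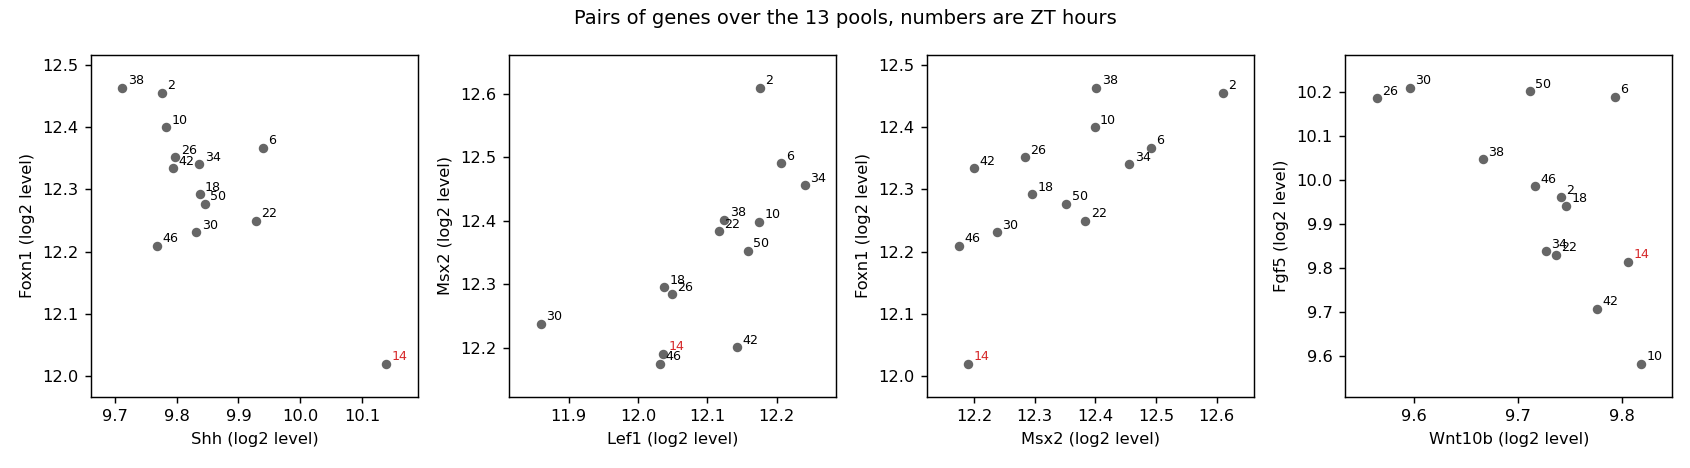
Log2 level of 1 gene against another over the 13 pools, 1 point per pool with its ZT hour beside it, for Shh and Foxn1, Lef1 and Msx2, Msx2 and Foxn1, and Wnt10b and Fgf5. ZT14, in red, sits alone at high Shh and low Foxn1 in the leftmost panel.

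The genes most like each growth signal were taken as the 2 with the smallest root mean square distance between profiles standardised over the 13 pools. Predicted genes, small RNA genes and olfactory and vomeronasal receptor genes were passed over in that choice. Ranks were counted among all 16321 others. For Shh they were Pramel12 (0.49) and Gli1 (0.50), with Ptch1 at rank 30. Without ZT14, an alternative added after the values were seen, Gli1 stood at rank 513 and Ptch1 at rank 3093, so this likeness rested on that pool. For Foxn1 they were Krtap3-1, a keratin-associated protein gene of the hair shaft (0.47, and rank 3 without ZT14), and Gdpd5 (0.48). Eif3d and Mob3b (0.31 and 0.33) were nearest to Msx2, Dcakd and Ints9 (0.32 and 0.40) to Lef1, and Mturn and Trim65 (0.45 each) to Bmp4. Plk2 and Rexo2 (0.39 and 0.46) were nearest to Fgf5, Tnfrsf22 and Tnf (0.44 and 0.47) to Wnt10b, Abhd13 and Tm4sf1 (0.40 and 0.41) to Bmp2, Ppih and Cep44 (0.48 and 0.50) to Wnt5a, and Prpsap2 and Pyroxd1 (0.50 and 0.52) to Fgf7. Of the pairs described above, Msx2 stood at rank 357 for Lef1 (607 without ZT14). Foxn1 stood at rank 410 for Msx2, and Msx2 at rank 107 for Foxn1. Many other genes thus followed these genes more closely than their pair partner did. These distances and ranks are a description, with no test.

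The wider pathways gave no call in any of the 3 tests (limma, 0 members at an adjusted p under 0.05). For the wave, an unadjusted p under 0.05 was found in 0 of 12 Hedgehog genes, 1 of 25 Wnt ligands and receptors, 2 of 21 Wnt effectors, targets and inhibitors, 4 of 18 FGF ligands, receptors and targets, 4 of 26 BMP pathway genes, 0 of 19 hair transcription factors and 1 of 14 dermal papilla genes, against 9.54% of all genes. The largest fitted amplitude in each list was 0.40 ± 0.21 (SE) for Foxi3 among the hair transcription factors, 0.19 ± 0.09 for Sox18 among the papilla genes, 0.20 ± 0.07 (SE) for the Wnt inhibitor gene Dkk1, 0.14 ± 0.05 for the R-spondin gene Rspo1, 0.15 ± 0.05 for Fgf18, 0.14 ± 0.06 for the BMP antagonist gene Grem1 and 0.13 ± 0.09 for the ligand gene Ihh. Their adjusted p lay between 0.484 and 0.771 (limma), and all but Ihh had their highest pool at ZT14.

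Most fitted slopes in these lists lay below 0. Slopes were below 0 in 9 of 12 Hedgehog genes, 19 of 25 Wnt ligands and receptors, 17 of 21 Wnt effectors, 14 of 18 FGF genes, 18 of 26 BMP genes and 18 of 19 hair transcription factors, against 56.5% of all genes. At an unadjusted p under 0.05, 0, 3, 4, 2, 1 and 2 genes of these lists were lower with time, against 5.59% of all genes. By the same limit 1 Wnt effector was higher, as were 525 of all 16322 genes. In dark against light 0, 3, 2, 3, 6 and 2 genes differed, against 12.4% of all genes. The genes share pools, so these counts are a description. Dkkl1 had -0.23 ± 0.06 log2 per 24 h (SE, adjusted p = 0.335 in limma) and Fgf22, an epidermal FGF ligand, -0.17 ± 0.05 (0.335). The Wnt5a receptor gene Ror2 had -0.13 ± 0.04 (0.366), Bmp3 -0.11 ± 0.06 (0.594) and Smo, the Hedgehog signal transducer, -0.08 ± 0.06 (0.715). Outside these lists, slopes were below 0 in 11 of 14 papilla genes. Among hair keratin and inner root sheath genes they were below 0 in 12 of 21, near the share of all genes. In that list the shaft keratin gene Krt82 had -0.25 ± 0.06 (SE, adjusted p = 0.325 in limma).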

How the data were processed

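Whole back skin of 13 time points, pooled from 39 mice, was measured on 1-colour Affymetrix whole-transcript arrays. The submitters' processing notes list Expression Console 1.1.1 by Affymetrix and the PLIER 2.0 method without saying what each did. The values the authors deposited are probe intensity on a linear scale, and how arrays were scaled and the genome build are not given in the sources used here. The number of arrays limits the precision.

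Of 35557 probes, 21789 had 1 gene symbol in the platform annotation and 1621 several, which were not used. Symbols were checked by gene ID against RefSeq (GRCm38.p6), which updated 0. Intensities were converted to log2(value + 16), probes with a mean under the 25th percentile (7.61 log2) were left out, and the highest-mean probe stood for a gene, which left 16322 genes.

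In limma 3.58.1 (R 4.3.3), a moderated F tested cosine and sine terms of 24 h beside linear time, and a moderated t tested the time term and, with linear time as covariate, dark minus light. Benjamini-Hochberg adjustment was over all genes, with calls under 0.05. Labels tie no pools into pairs. Pairs of the 10 genes were tested two-sided with 100000 permutations of pools in Python 3.11.15, adjusted over 45 pairs. Permutation took the pools as exchangeable, although they are ordered in time. The fits were tested on simulated data, and figures were drawn with matplotlib 3.10.9.

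The 10 genes and the 17 other lists were chosen with earlier results of these data known. Named list genes were those with the largest amplitude or absolute drift in their list, with tissue markers. Genes described for ZT14 were picked once their values were known. Other settings were quantile and median scaling, a pseudocount of 1 or 64, the filter dropped or set at the 50th percentile, all probes with 1 symbol, a trended robust prior, no linear time or no wave, muscle and adipocyte covariates, times of day as a factor (for drift, as a block of matched hours added later), and leaving out each pool.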

Additional observations from a re-analysis of the deposited data

Results flagged for a closer look

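A gap between 1 pool and the rest, divided by the range of its group, passed Dixon's 95% limit in 3 of 20 groups of values (10 genes, dark and light pools apart), where chance gives about 1 in 20. Wnt5a stood at 0.63 in the dark, with ZT38 lowest, and at 0.644 in the light, with ZT10 lowest. Shh stood at 0.572 in the light, with ZT6 highest. The ZT14 values of Shh and Foxn1, with 0.495 and 0.427 in the dark, did not pass.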

How the results depend on the processing

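None of the 10 genes passed in any of the 24 alternatives each for the wave and for drift or the 23 for dark against light. The smallest adjusted p in limma was 0.166 (Bmp4, wave, trended robust prior), 0.197 (Bmp4, drift, the same prior) and 0.197 (Fgf5, dark against light, without ZT10). The count of all genes with a wave was 23, and 15 with no filter, 8 with muscle and adipocyte covariates, 9 with times of day as a factor, and 13 to 30 with a pool left out. For dark against light it was 1, and 2 with the 50th percentile filter or no linear time, 0 with quantile normalization, a pseudocount of 64, no filter, the trended robust prior or the covariates, and 0 to 4 with a pool left out. For drift it was 0 in each. The count of pairs passing by Pearson's r was 0, 5 on residuals, and 0 to 2 with a pool left out, with Shh and Foxn1 (adjusted permutation p = 0.0407) and Wnt10b and Fgf5 (0.0203) passing without ZT6.

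Signs of differences near 0 were not stable. Drift turned to 0.00168 for Bmp2 and 0.0266 for Foxn1 with the covariates, and with a pool left out ran from -0.0546 to 0.0322 for Foxn1, -0.0814 to 0.0696 for Fgf7 and -0.0478 to 0.0143 for Lef1. Dark minus light turned with median centring, no linear time and the covariates, to -0.0399, -0.00155 and -0.0102 for Wnt5a and -0.0314, -0.00663 and -0.0102 for Bmp2. With a pool left out it ran from -0.0188 to 0.0241 for Wnt5a, -0.0337 to 0.0530 for Bmp2, -0.0206 to 0.124 for Fgf7 and -0.0110 to 0.0899 for Shh, which turned without ZT14. The cause was not tested. With the matched hours of both days as a block, a fit added after the values were seen, 0 of the 10 genes and 0 of all genes passed for drift, and Bmp4 had -0.107 log2 per 24 h (adjusted p = 0.634 in limma). With a pool left out, slopes also ran from -0.102 to -0.0242 for Shh (nearest 0 without ZT14) and from -0.103 to -0.0123 for Bmp2 (without ZT50). No paired analysis was possible by replicate number, because the labels carry none.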

Other observations

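Beside Foxi3, the gene farthest above the other pools at ZT14 was Hsd11b2, whose enzyme inactivates corticosterone, with 2577 there and 393.2 to 573.8 in the other 12 pools (2.31 log2). Prss35, a serine protease gene, read 533.5 and 218.0 to 291.1, Acan, a cartilage proteoglycan gene, 391.3 and 158.0 to 245.9, and Hey2, a Notch target, 503.7 and 209.3 to 326.2. These are among the 8 named genes with the largest difference at ZT14, a rule added after the values were seen, and each rests on 1 pool. Of the remaining 3 of these, Thrsp, a lipogenic gene, was also highest at ZT14, while Cyp2e1 and Serpinb6d reached higher values in another pool.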
